A study of Mus musculus with 8 samples.

Results

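The 9 genes described here are enzymes of fatty acid synthesis and the factors that control them: Fasn, Acly, Thrsp, Pklr, Me1, Acss2, Srebf1, Mlxipl and Gpam. They were taken by name from the 13840 genes that the array annotation pairs with a probe of exactly 1 gene symbol. Each of the 9 had exactly 1 such probe, so no choice between probes was needed. RNA of hypothalamus and liver was compared between C57BL/6J (called B6) and B6.CAST-17 homozygous congenic mice (called congenic), which carry a CAST segment of chromosome 17 on the B6 background. All animals were male, and their age was not given in the sources used here. Each group was 1 pool of 6 mice, and there was 1 pool for each combination of tissue, strain and diet, 8 in all.

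The diet groups were LabDiet chow and a choice between a 78% carbohydrate and a 78% fat diet, each with 22% protein, called 2-choice here. In each strain, 20 to 25 mice had first chosen between these diets for 10 days, and those with the most divergent nutrient intake were kept, so the pools hold selected animals. After 6 weeks back on chow, the 2-choice mice met the choice again for 24 h and tissue was taken 4 h before lights out. The hour of collection of the chow mice, and how much of each diet the pooled mice ate on that day, were not analysed here.

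De novo lipogenesis turns surplus carbohydrate into fatty acids in the cytosol of liver cells. Citrate leaves the mitochondrion, Acly (ATP citrate lyase) splits it to acetyl-CoA, and Fasn (fatty acid synthase) builds palmitate from acetyl and malonyl units with NADPH, part of which Me1 (malic enzyme) supplies. Acss2 makes acetyl-CoA from acetate, Pklr (the pyruvate kinase of liver and red cells) feeds glycolytic carbon into the route, and Gpam puts the new acyl chains onto glycerol phosphate. In liver, insulin acts on the route through SREBP-1c, a product of Srebf1, and glucose acts through ChREBP, the product of Mlxipl. Thrsp, also called Spot 14, is a small nuclear and cytosolic protein induced by thyroid hormone and carbohydrate feeding.

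Promoter sequences of all 9 genes were found in RefSeq (build GRCm38.p6), 15 start sites in all, each from 250 bases before to 50 bases after the start. They lie on chromosomes 11 (Fasn, Acly, Srebf1), 7 (Thrsp), 3 (Pklr), 9 (Me1), 2 (Acss2), 5 (Mlxipl) and 19 (Gpam), and so 0 of them lie on chromosome 17. Shown are the promoters of Fasn, of Thrsp and Pklr, whose liver profiles came nearest to that of Fasn among the 9, and of both starts of the regulator Mlxipl. Capitals mark the motifs searched on both strands, and all sequences run 5′ to 3′ along the strand of the gene.
Pklr, chr3:89136373-89136672, plus strand: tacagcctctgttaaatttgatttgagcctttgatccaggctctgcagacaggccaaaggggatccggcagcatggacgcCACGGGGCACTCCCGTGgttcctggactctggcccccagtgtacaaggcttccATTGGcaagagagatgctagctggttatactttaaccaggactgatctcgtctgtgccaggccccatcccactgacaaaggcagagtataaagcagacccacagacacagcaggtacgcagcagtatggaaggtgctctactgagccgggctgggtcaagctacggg
Thrsp, chr7:97417501-97417800, minus strand: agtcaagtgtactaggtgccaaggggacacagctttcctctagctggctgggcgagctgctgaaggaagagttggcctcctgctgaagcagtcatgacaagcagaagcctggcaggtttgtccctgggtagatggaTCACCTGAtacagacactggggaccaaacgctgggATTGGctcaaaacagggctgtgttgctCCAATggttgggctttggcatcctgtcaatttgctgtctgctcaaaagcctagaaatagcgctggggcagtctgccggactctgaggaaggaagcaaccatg
Fasn, chr11:120824498-120824797, minus strand: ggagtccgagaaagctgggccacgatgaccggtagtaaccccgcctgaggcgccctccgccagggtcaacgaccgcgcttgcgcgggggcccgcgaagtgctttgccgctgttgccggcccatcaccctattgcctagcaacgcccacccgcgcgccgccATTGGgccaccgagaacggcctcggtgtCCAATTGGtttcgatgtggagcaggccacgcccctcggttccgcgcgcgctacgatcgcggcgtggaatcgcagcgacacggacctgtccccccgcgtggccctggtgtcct
Mlxipl upstream start, chr5:135089640-135089939, plus strand: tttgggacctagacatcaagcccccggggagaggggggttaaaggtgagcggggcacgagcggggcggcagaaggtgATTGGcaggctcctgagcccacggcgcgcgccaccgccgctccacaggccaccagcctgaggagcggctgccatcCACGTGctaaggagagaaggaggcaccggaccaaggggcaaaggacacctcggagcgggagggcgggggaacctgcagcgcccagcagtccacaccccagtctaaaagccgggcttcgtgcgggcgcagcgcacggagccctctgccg
Mlxipl downstream start, chr5:135106641-135106940, plus strand: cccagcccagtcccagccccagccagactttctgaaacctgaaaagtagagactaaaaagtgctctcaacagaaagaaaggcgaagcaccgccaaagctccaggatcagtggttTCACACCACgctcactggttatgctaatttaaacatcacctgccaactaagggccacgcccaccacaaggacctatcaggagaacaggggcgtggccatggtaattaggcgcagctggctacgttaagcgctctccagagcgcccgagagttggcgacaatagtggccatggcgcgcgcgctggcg

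The Pklr promoter holds CACGGGGCACTCCCGTG at -170 to -154 from the start, a match to the paired E-box pattern of a carbohydrate response element (CACGNG and CNCGTG with 5 bases between), which 0.0457% of 32851 RefSeq promoter entries of this length hold. The other Pklr start, chr3:89135892-89136191, holds none of the motifs searched. The Thrsp promoter holds TCACCTGA at -114 to -107, a match to TCACNTGA, an E-box form that SREBP-1 can bind (4.18% of entries). The upstream Mlxipl start holds CACGTG, the plain E-box, at -98 to -93 (7.15% of entries), and the downstream start holds TCACACCAC at -136 to -128, a match to the sterol regulatory pattern TCACNCCAC (1.24%). CCAAT, in either direction, is in 10 of the 15 entries, against 37.4% of all entries. Each of the 9 genes has it in at least 1 entry, a count for which no share over all genes was taken. The only match of Acly lies after the start, at 38 to 42. Fasn has 3 matches, and those at -62 to -58 and at -59 to -55 overlap in the letters CCAATTGG. The patterns overlap, since a CACGTG can lie inside TCACNTGA or form an end of the paired E-box pattern. A match describes the letters only, and binding was not measured.

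Levels below are log2 of the deposited intensity after quantile normalization within each tissue, for 1 probe and 1 pool each. A difference in level is 2-choice minus chow, or congenic minus B6, on that log2 scale. Fewer cells of a type and less RNA per cell cannot be told apart in such pools. The arrays matched their tissue labels, with Alb (hepatocyte albumin) at 20.07 to 21.40 in liver and at 8.75 to 11.42 in hypothalamus. Liver arrays correlated at 0.93 to 0.953 with each other over all probes. In hypothalamus the 2-choice pair correlated at 0.965 and every pair that held a chow array at 0.863 to 0.891, and the deposited median intensity was 559.6 on chow and 1338 on 2-choice. Both strains of a tissue and diet had been scaled to a common distribution (sorted values within 0.244%), and a diet difference cannot be told apart from a difference between scaling sets.

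In liver, 8 of the 9 genes stood higher in both 2-choice pools than in both chow pools, an arrangement found in 17.5% of the 9724 genes above the filter on dim probes. All but Gpam had it. The 9 genes were chosen with earlier results of these data known, so such shares describe them and test nothing. The median diet difference of the 9 genes was 0.63, against -0.05 over all 9724 genes. In B6 the median was 0.54 and in the congenic strain 1.09. The congenic 2-choice array held the highest liver level of 8 of the 9 genes, all but Srebf1, while 24.4% of all genes peaked on that array.

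The error of these differences was made of strain-by-diet interactions, of both tissues in the fit of all 8 arrays, since no pool was repeated. It was moderated, which draws the error of each probe toward that of other probes of like level. The p-values thus rest on an error shared over probes and not on the spread of 1 gene's pools alone. No repeated pool entered them. In limma's fit of all 8 arrays, 0 of 19807 probes (0.0%) passed an adjusted p of 0.05 for diet in liver, so none of the 9 genes passed. At an unadjusted p under 0.05 there were 1731 probes (8.74%) and 5 of the 9 genes, namely Fasn, Acly, Thrsp, Pklr and Srebf1. With the 4 liver arrays fitted alone, which leaves 1 residual degree of freedom, 639 probes passed (3.23%), among them Fasn, Acly, Thrsp, Pklr, Srebf1 and Mlxipl, 6 of 9. The estimates are equal in both fits and only the error differs. Over the alternatives in scaling, filter, variance model and fit, the adjusted p ran from 0.000243 to 0.69 for Fasn, 0.00188 to 0.69 for Thrsp, 0.00877 to 0.699 for Acly and 0.0142 to 0.699 for Pklr. It ran from 0.0257 to 0.703 for Srebf1 and from 0.0338 to 0.895 for Mlxipl.

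**Figure D1:**
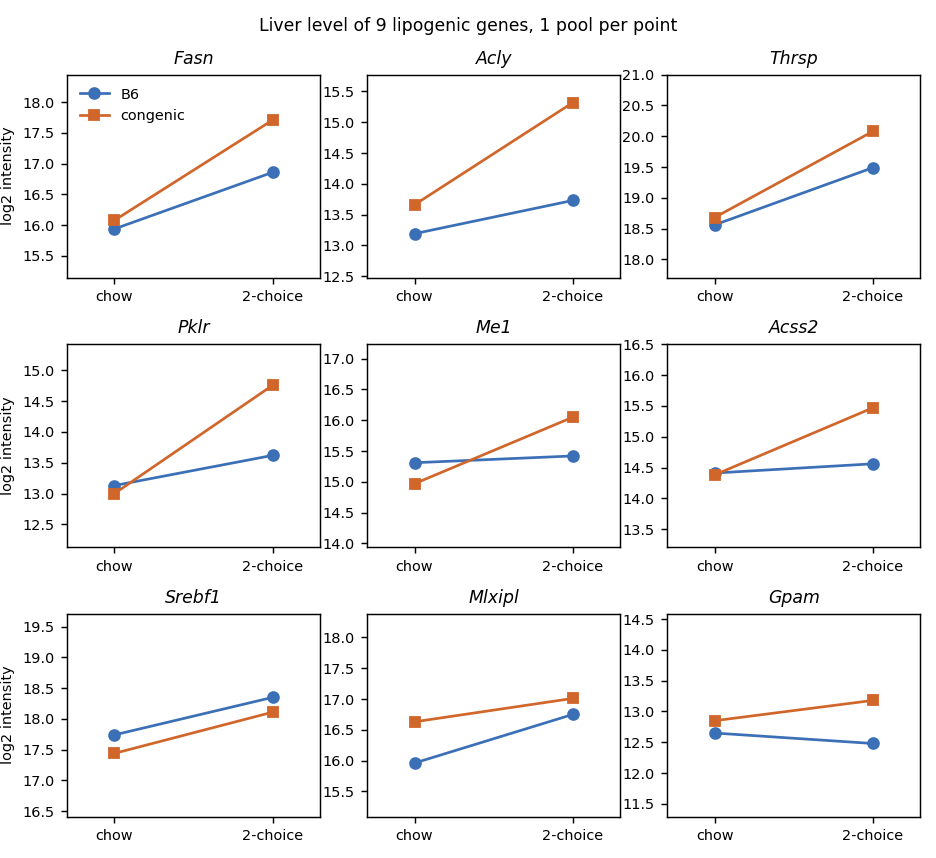
Liver level of each gene (log2 intensity, quantile normalized within liver, vertical axes of equal length but different origin) on chow and 2-choice. Each point is 1 pool of 6 mice, circles B6 and squares congenic, and lines join the pools of a strain. Lines slope upward from chow to 2-choice in both strains for 8 genes, and for Gpam only in the congenic strain.

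Fasn, the synthase itself, had liver levels of 15.94 (B6 chow), 16.86 (B6 2-choice), 16.08 (congenic chow) and 17.71 (congenic 2-choice). The chow pools of both strains lay close together, both 2-choice pools lay above them, and the congenic 2-choice pool lay highest. As deposited, these arrays read 63803, 113591, 70335 and 207479 intensity units in the same order. The diet difference was 0.92 in B6 and 1.63 in the congenic strain, with a mean of 1.27 ± 0.23 or 2.42-fold. Errors of fitted means are limma's moderated standard errors, here from the 8-array fit, and not the spread of the 2 strain values alone. Its adjusted p in limma was 0.215 over 8 arrays and 0.000243 over the 4 liver arrays. Leaving out any 1 of the 4 hypothalamus arrays from the 8-array fit did not change this difference. Its error then came from the liver arrays alone, as in the liver fit, so these omissions are no separate checks. Leaving out any 1 liver array leaves 1 strain pair and gave 0.92 or 1.63.

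Acly, which makes the acetyl-CoA that Fasn uses, had levels of 13.19, 13.73, 13.66 and 15.32 in the same order of pools. The congenic 2-choice pool stood apart, and the B6 2-choice pool lay barely above the congenic chow pool. The diet differences were 0.54 in B6 and 1.67 in the congenic strain, a mean of 1.10 ± 0.31 or 2.15-fold, with adjusted p = 0.383 (8 arrays) and 0.00877 (liver alone). Acss2, the acetate-dependent source of acetyl-CoA, was at 14.41, 14.56, 14.38 and 15.47. Here 3 of the 4 pools were nearly level and the congenic 2-choice pool was higher. Its diet difference was 0.15 in B6 and 1.09 in the congenic strain (mean 0.62 ± 0.35, adjusted p = 0.647, and 0.0918 with liver alone).

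Pklr, at the end of glycolysis, had levels of 13.13, 13.62, 13.00 and 14.76. Both 2-choice pools exceeded both chow pools, by more in the congenic strain. The diet difference was 0.49 in B6 and 1.76 in the congenic strain, the highest single-strain value of the 9 genes in liver. The mean was 1.12 ± 0.48 or 2.18-fold, with adjusted p = 0.567 over 8 arrays and 0.0142 over liver alone. Me1, which yields NADPH for the synthase, had levels of 15.31, 15.42, 14.97 and 16.05. B6 pools were nearly level between the diets, and the congenic pools held the lowest and the highest level. Its diet difference was 0.11 in B6 and 1.08 in the congenic strain (mean 0.59 ± 0.26, adjusted p = 0.574, and 0.0992 with liver alone).

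Gpam, the acyltransferase that opens glycerolipid synthesis, was the exception among the enzymes. Its levels were 12.65, 12.48, 12.85 and 13.18. The diet groups overlapped, with the B6 2-choice pool the lowest of the 4 and the congenic 2-choice pool the highest. The diet difference was -0.17 in B6 and 0.33 in the congenic strain, and its mean of 0.08 ± 0.46 had an adjusted p of 0.979.

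Thrsp had levels of 18.56, 19.49, 18.68 and 20.08. The chow pools were close together and the 2-choice pools of both strains lay above them. The difference was 0.94 in B6 and 1.40 in the congenic strain, the closest agreement between strains among the genes whose mean difference exceeded 2-fold. The mean was 1.17 ± 0.18 or 2.25-fold, with adjusted p = 0.175 over 8 arrays and 0.00188 over liver alone. As for Fasn, leaving out a hypothalamus array did not change the difference and took the error from liver alone. Leaving out a liver array leaves 1 strain pair and gave 0.94 or 1.40.

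The mean diet differences of both transcription factor genes were smaller than those of Fasn, Acly, Thrsp and Pklr. Srebf1 had levels of 17.74, 18.35, 17.44 and 18.11, so both 2-choice pools lay above both chow pools and each B6 pool lay above the congenic pool of its diet. The diet difference was nearly equal in the strains, 0.60 in B6 and 0.66 in the congenic strain, with a mean of 0.63 ± 0.15 or 1.55-fold (adjusted p = 0.307, and 0.0257 with liver alone). Mlxipl had levels of 15.96, 16.75, 16.63 and 17.01. The B6 chow pool was the low one, and the other 3 pools lay within a narrow range. It was the only gene of the 9 whose diet difference was smaller in the congenic strain, 0.39 against 0.78 in B6, and the mean of 0.59 ± 0.50 had adjusted p = 0.787 (0.0338 with liver alone). The probe is annotated to Mlxipl as a whole, so transcripts from its 2 starts shown above could not be told apart, and the same holds for Srebf1 and Pklr.

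In single strains, 4 of 9 genes were at least 1.5-fold higher on 2-choice in B6 (11.6% of all genes) and 7 of 9 in the congenic strain (16.4%). When both strains had to share a direction and average 1.5-fold or more, 8 of 9 genes qualified, against 8.98% of all genes. Me1, Acss2, Srebf1 and Mlxipl lay close to that limit, at 0.59 to 0.63 against a log2 limit of 0.585. Under each of the other 3 scalings only the remaining 4 (Fasn, Acly, Thrsp and Pklr) met it. The direction did not depend on the scaling: 8 of 9 were higher in both strains under all 4 scalings, against 26.8% of all genes under the one used here.

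**Figure D2:**
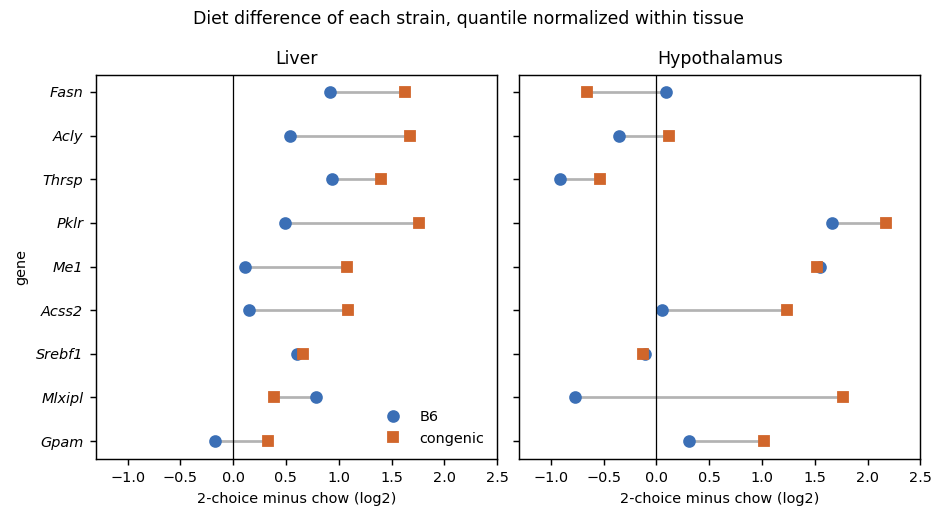
Diet difference (2-choice minus chow, log2) of each gene in B6 (circles) and congenic (squares) mice, in liver at left and hypothalamus at right, each value from 1 pool against 1 pool. In liver all values but that of Gpam in B6 lie above 0 and the congenic value lies to the right of the B6 value for 8 genes. In hypothalamus the values lie on both sides of 0.

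In liver the strains lay apart mostly on the 2-choice diet. On chow, 1 of the 9 genes (Mlxipl, 0.67) was at least 1.5-fold higher in the congenic pool, a property of 13.1% of all genes. On 2-choice, 7 of 9 were at least 1.5-fold higher in the congenic pool, against 14.3% of all genes, and under quantile normalization over all 8 arrays 5 of 9 were. The 7 were Acly (1.59), Pklr (1.14), Acss2 (0.91), Fasn (0.85), Gpam (0.70), Me1 (0.63) and Thrsp (0.59). Both strain values of Srebf1 were below 0, at -0.30 on chow and -0.24 on 2-choice. Every strain difference on 2-choice and every congenic diet difference shares the liver congenic 2-choice array, so these sets of values are not independent.

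Acly had the largest mean strain difference of the 9 genes in liver, 0.46 on chow and 1.59 on 2-choice. Both congenic pools lay above the B6 pool of the same diet, with a mean of 1.03 ± 0.31 (adjusted p = 0.654 over 8 arrays, 0.0252 over liver alone). In the 8-array fit 0 of 19807 probes (0.0%) passed for strain in liver and 1318 (6.65%) had an unadjusted p under 0.05. With liver alone 252 probes passed (1.27%), and Acly was the only gene of the 9 among them. For Fasn the mean strain difference was 0.50 (adjusted p = 0.759, and 0.185 with liver alone). For Pklr, Me1 and Acss2 the strain difference had opposite signs on the diets, with -0.13, -0.34 and -0.03 on chow and 1.14, 0.63 and 0.91 on 2-choice.

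Put as a single value, the congenic diet difference minus the B6 diet difference in liver was 1.27 for Pklr, 1.13 for Acly, 0.97 for Me1, 0.94 for Acss2 and 0.71 for Fasn. These 5 of 9 genes had a congenic difference at least 1.5-fold above that of B6, which 19.3% of all genes had. For Gpam the value was 0.50 and for Thrsp 0.47. It was above 0 for 8 of 9 genes, as for 52.4% of all genes. The regulators came last, with 0.06 for Srebf1 and -0.40 for Mlxipl. The median of the 9 was 0.71, against 0.03 over all genes. With 1 pool per group this quantity has no error and no test.

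The genes around these 9 in the pathway gave a mixed picture in liver. Of 13 further genes listed for fatty acid synthesis, 8 were measured and above the filter, and 4 were higher in both strains, 1 was lower in both and 3 were split. Over all genes 26.8% were higher in both strains and 34.7% lower in both. Fads2, the delta-6 desaturase, was 0.85 higher in B6 and 0.91 in the congenic strain (mean 0.88 ± 0.17, adjusted p = 0.22, and 0.00137 with liver alone). Elovl6, which lengthens palmitate, was 0.38 and 1.23 higher (mean 0.80 ± 0.21, adjusted p = 0.375, and 0.0151 alone). Mid1ip1, the paralogue of Thrsp, was 0.71 and 0.45 higher. Scd1, the stearoyl-CoA desaturase, was split between the strains, with -1.36 in B6 and 0.32 in the congenic strain, and the exporter of mitochondrial citrate Slc25a1 was nearly level (-0.25 and 0.18). The list's median of 0.23 compares with -0.05 over all genes.

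Among the genes that control SREBP and ChREBP, 11 of 16 were measured, 4 higher in both strains, 5 lower in both and 2 split, with a median of 0.01, and these shares lie near those of all genes. Insig1 and Insig2, which hold SREBP in the endoplasmic reticulum, were the 2 of this list that passed with liver alone. Insig1 was at 16.48 (B6 chow), 17.06 (B6 2-choice), 16.17 (congenic chow) and 16.79 (congenic 2-choice), in the same order of pools as Srebf1, with differences of 0.58 and 0.63 (adjusted p = 0.361, and 0.0199 alone). Insig2 had differences of 0.87 and 0.61 (adjusted p = 0.377, and 0.00796 alone). Mbtps2, a protease that releases SREBP from the membrane, was lower by both strains' values, -2.67 and -1.86 (adjusted p = 0.37), but on the 2-choice arrays its levels of 8.58 and 8.60 lay under the filter limit of 9.042. Mlx, the partner of ChREBP, differed by 0.07 and 0.18, and Nr1h3, the nuclear receptor LXR alpha that acts on Srebf1, by -0.29 and -0.19.

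Sugar supply and glycerolipid genes were mostly near level between the diets. Of the sugar supply list, 6 of 12 were measured, 2 higher in both strains and 4 split, and the ketohexokinase gene Khk differed by -0.05 in B6 and 0.66 in the congenic strain. Of glycerolipid synthesis, 11 of 13 were measured, 6 higher in both strains, 1 (Dgat1) lower in both and 4 split, with a median of 0.21, and Acsl5 differed by 0.30 and 0.69. Of 7 NADPH supply genes 2 were measured, Tkt lower by 0.01 and 0.03, and Idh1 split. No gene of the 3 lists passed, with 8 arrays or with liver alone.

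**Figure D3:**
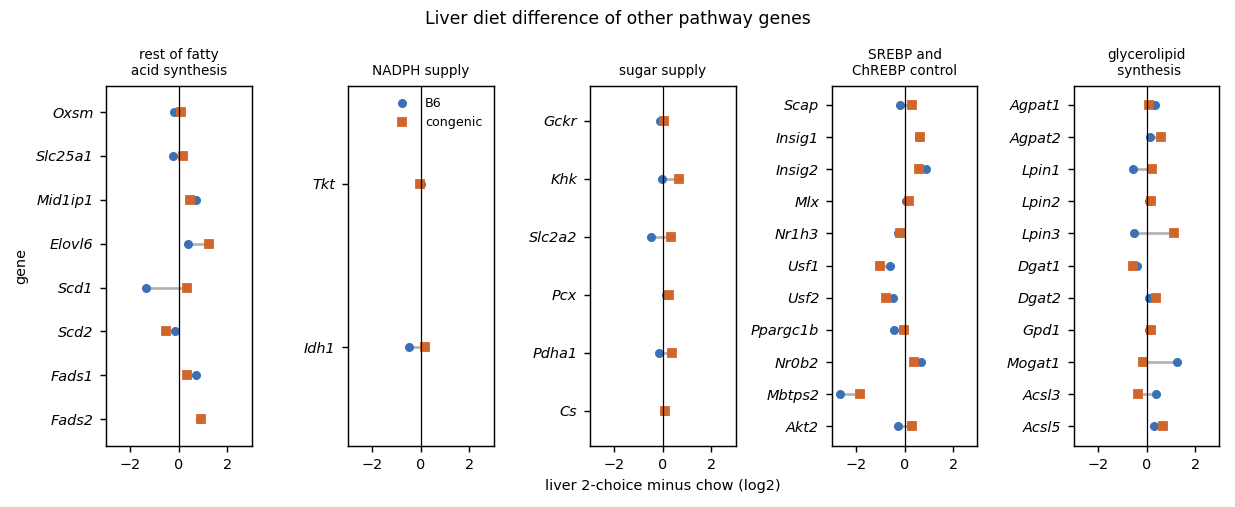
Liver diet difference (2-choice minus chow, log2) of the measured genes of 5 pathway lists in B6 (circles) and congenic (squares) mice, each value from 1 pool against 1 pool. Fads2, Insig1 and Insig2 lie above 0 in both strains, Mbtps2 lies furthest below, and most sugar supply and glycerolipid genes lie near 0.

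Markers of other liver cells also lay apart by diet on the same arrays. The log2 summed level of 7 measured macrophage markers (of 9 listed) was 17.28 and 17.42 on chow and 16.17 and 15.87 on 2-choice, with 5 of 7 lower in both strains, as were 34.7% of all genes. The sum of 6 of 6 endothelial markers was 16.21 and 16.26 on chow and 15.85 and 15.89 on 2-choice, with 4 lower in both strains. The sum of 4 of 7 hepatocyte markers was 22.35 (B6 chow), 22.03 (B6 2-choice), 22.83 (congenic chow) and 22.61 (congenic 2-choice), so the sum was higher on chow in each strain. Only 1 of these 4 markers, Ttr, was lower on 2-choice in both strains, and the other 3 were split. That of 5 of 7 adipocyte markers was 13.08, 13.51, 13.40 and 13.64, and 3 of those 5, among them Lep at 7.51 to 8.40, lay under the liver filter. The part of these cell types in the diet differences of the 9 genes was not tested.

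The 5 genes with liver profiles nearest to that of Fasn, by root mean square difference of centred log2 levels over the 4 arrays among 9723 genes, were Slc7a14 (0.071), Vmn1r198 (0.072), Defb35 (0.083), Aqp8 (0.096) and Cysltr1 (0.099). Aqp8, a water channel of hepatocytes, had levels of 15.57, 16.29, 15.47 and 17.14, while the others had levels of 8.35 to 9.05 on the B6 chow array, near or below the filter limit of 9.042. Thrsp followed at rank 6 (0.108) and Pklr at rank 13 (0.159). Acly ranked 125, Acss2 167, Me1 268, Mlxipl 441, Srebf1 909 and Gpam 1664. With 4 arrays many genes share any such profile, and the ranking is a description.

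In hypothalamus the genes did not share a direction. Of the 8 above the filter, Me1, Acss2 and Gpam were higher on 2-choice in both strains (36.7% of 9875 genes were), Thrsp and Srebf1 were lower in both (28.5%), and Fasn, Acly and Mlxipl were split. Both 2-choice pools lay above both chow pools for 3 of 8, against 32.4% of all genes, and below them for 2 of 8, against 24.2%. The median of the 8 was 0.19 with a median of 0.11 over all genes, but as deposited or after median-centring all 8 had a mean above 0, where the median of all genes shifted by 2.13 and 0.87. Directions below are therefore given under quantile normalization only. In the 8-array fit 97 of 19807 probes passed (0.49%) and 4143 (20.9%) had an unadjusted p under 0.05, and 0 of the 8 genes passed.

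Me1 had hypothalamus levels of 11.39 (B6 chow), 12.94 (B6 2-choice), 11.09 (congenic chow) and 12.62 (congenic 2-choice). Both 2-choice pools lay well above both chow pools. The differences were 1.55 in B6 and 1.52 in the congenic strain, with a mean of 1.53 ± 0.26 or 2.9-fold. Its adjusted p of 0.0504 narrowly missed the limit with 8 arrays. It was 0.0453 with hypothalamus alone, where 753 probes passed (3.8%) and Me1 was the only one of the 8 genes to do so, and 0.036 with quantile normalization over 8 arrays. Without any 1 liver array it was 0.0805 to 0.0888. Over the other scalings, filters and variance models it ran from 8.5e-06 to 0.2. Leaving out any 1 of the hypothalamus arrays leaves 1 strain pair, and the difference was then 1.52 or 1.55.

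Thrsp ran the other way in this tissue, with levels of 13.88, 12.97, 13.67 and 13.15. Both 2-choice pools lay below both chow pools. The differences were -0.91 in B6 and -0.53 in the congenic strain (mean -0.72 ± 0.18, adjusted p = 0.0986), and the adjusted p was 0.201 to 0.21 without any 1 liver array. Without either congenic array it was 0.0256 to 0.0362, but this sets 1 B6 pool against 1 B6 pool, assumed to vary as the liver pools do. Fasn was at 15.34, 15.42, 16.12 and 15.46, with the congenic chow pool above the other 3. Its differences were 0.09 in B6 and -0.66 in the congenic strain (mean -0.29, adjusted p = 0.508).

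Srebf1 was the steadiest of the genes in hypothalamus, with levels of 15.84, 15.73, 15.88 and 15.75. All 4 pools were nearly level, and the diet differences were -0.11 and -0.13 (mean -0.12, adjusted p = 0.678). Acly had levels of 12.94, 12.59, 12.29 and 12.40, lower in both congenic pools than in the B6 pools. Acss2 had levels of 11.87, 11.92, 10.66 and 11.90, with only the congenic chow pool low, so that its diet difference was 0.05 in B6 and 1.24 in the congenic strain (mean 0.64, adjusted p = 0.321).

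Mlxipl had levels of 11.42, 10.64, 8.68 and 10.44. The congenic chow pool was far below the rest and under the hypothalamus filter limit of 9.261. The diet difference was -0.77 in B6 and 1.77 in the congenic strain (mean 0.50, adjusted p = 0.591). The strain difference was -2.74 on chow and -0.20 on 2-choice (mean -1.47 ± 0.49, adjusted p = 0.823). Omitting an array here leaves 1 pool against 1 pool, assumed to vary as the liver pools do: the congenic diet difference then had adjusted p-values of 0.00724 to 0.00739 (without either B6 array) and the chow strain difference 0.000395 to 0.000571 (without either 2-choice array). Both rest on the congenic chow level under the filter limit. For strain in hypothalamus, 0 of 19807 probes (0.0%) passed in the 8-array fit, 983 (4.96%) had an unadjusted p under 0.05, and 21 (0.106%) passed with hypothalamus alone, none of them a probe of the 8 genes tested there. Gpam was near the filter limit, at 9.49, 9.80, 8.99 and 10.01, and its differences were 0.31 and 1.02 (mean 0.67, adjusted p = 0.441).

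Pklr lay under the filter in hypothalamus and was not tested there. Its levels were 8.35 and 7.75 in the chow pools and 10.01 and 9.92 in the 2-choice pools of B6 and congenic mice. Both 2-choice pools lay above both chow pools, by 1.66 and 2.17. The log2 summed level of 4 measured hepatocyte markers in hypothalamus lay in the same order by diet, at 11.79 (B6) and 10.66 (congenic) on chow and 12.56 and 13.16 on 2-choice. Not all 4 markers followed this order, since in B6 Tat was at 10.51 on chow and 8.98 on 2-choice and Apoa1 at 9.24 and 9.13. The sum of 4 measured oligodendrocyte markers was 16.83 and 17.08 on chow and 17.99 and 17.65 on 2-choice. The part of such RNA in the Pklr and Me1 values was not tested. Of the other pathway genes in hypothalamus, only Khk passed with 8 arrays, at 1.41 ± 0.22 (adjusted p = 0.0423), and it did not with hypothalamus alone (adjusted p = 0.315). With hypothalamus alone Insig1 (-0.84, adjusted p = 0.0153) and Scap, the escort of SREBP (-0.74, adjusted p = 0.0298), passed as lower on 2-choice, and with 8 arrays they did not (0.0566 and 0.0852). In liver, both Insig1 values were above 0.

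Whether the diet difference was unequal in the tissues was tested as liver diet difference minus hypothalamus diet difference. Thrsp had the largest such value of the 8 genes tested, 1.89 ± 0.26, with adjusted p = 0.0732. Fasn had 1.56 ± 0.33 (adjusted p = 0.154), Acly 1.22 (0.25) and Srebf1 0.76 ± 0.21 (0.202). For Me1 the value was -0.94 (adjusted p = 0.28), and for Gpam -0.59 (0.693). Acss2 at -0.03 and Mlxipl at 0.09 were near 0 with adjusted p-values of 0.985 and 0.962. Of 15466 probes above the filter in both tissues 10 passed (0.0647%), and 2433 had an unadjusted p under 0.05 (15.7%), and none of the 8 genes passed. Leaving out any 1 array leaves 1 strain pair in its tissue, and the error then comes from the other tissue alone. Over these omissions the value was 1.66 to 2.12 for Thrsp and 1.19 to 1.93 for Fasn. For Mlxipl it was 1.36 without either congenic hypothalamus array and -1.18 without either B6 hypothalamus array.

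By mean difference, every gene but Fasn differed most between the tissues. With all 8 arrays quantile normalized together and the 4 matched pools of strain and diet as blocks, 8 of 9 passed as higher in liver. Of 19807 probes 24.1% passed as higher in liver and 49.1% in either direction. Mlxipl was 4.34 (B6 chow), 5.86 (B6 2-choice), 7.58 (congenic chow) and 6.28 (congenic 2-choice) higher in liver than in the matched hypothalamus pool. All 4 pairs pointed the same way, and the mean was 6.02 ± 0.42 (limma's moderated standard error) or 64.7-fold, with an adjusted p of 7.99e-07. The congenic chow value rests on the hypothalamus pool whose Mlxipl level lay under the filter limit. Thrsp was higher by 3.93, 5.80, 4.28 and 6.12 in the same order, under this scaling more on 2-choice than on chow in both strains. As deposited that diet order was reversed in both strains. The deposited log2 levels were 18.61, 19.41, 18.72 and 20.01 in liver and 12.78, 14.11, 12.56 and 14.28 in hypothalamus, in the same order. With the 8 arrays normalized together the mean for Thrsp was 5.03 ± 0.33 or 32.7-fold (adjusted p = 5.29e-07). Pklr was higher by 4.63 ± 0.39 (adjusted p = 3.21e-06) and by 3.69 to 5.24 over the pairs. Its mean hypothalamus level lay under the filter limit, so the size of that difference is less certain and no fold is given.

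The other enzymes were also higher in liver, by smaller amounts. Gpam was 10.2-fold higher (3.35 ± 0.37, adjusted p = 2.76e-05), Me1 9.37-fold (3.23 ± 0.29, 5.4e-06) and Acss2 8.24-fold (3.04 ± 0.28, 6.06e-06), and each was higher in 4 of 4 pairs. In hypothalamus Gpam lay near the filter limit, with the congenic chow pool under it, so the size of its fold is less certain. Acly was 2.52-fold higher (1.33 ± 0.35, adjusted p = 0.00953), with pair values of 0.20, 1.08, 1.34 and 2.70. Without the congenic 2-choice pair the Acly difference was 0.87 with adjusted p = 0.0581. Srebf1 was 2.24-fold higher (1.16 ± 0.19, adjusted p = 0.000499), with pair values of 0.65 to 1.63.

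Fasn was the only one of the 9 that did not pass between tissues. Its pair values were -0.10 (B6 chow), 0.62 (B6 2-choice), -0.87 (congenic chow) and 1.37 (congenic 2-choice). Under this scaling liver was the lower tissue in both chow pairs and the higher in both 2-choice pairs. The mean of 0.26 ± 0.30 had an adjusted p of 0.521 in limma. As deposited, liver was the higher tissue in every pair. The intensities on chow were 63803 in liver against 20029 in hypothalamus for B6, and 70335 against 35166 for the congenic strain. On 2-choice they were 113591 against 90870 for B6 and 207479 against 92943 for the congenic strain. With each array centred on its median the mean was 1.34 (adjusted p = 0.00126).

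**Figure D4:**
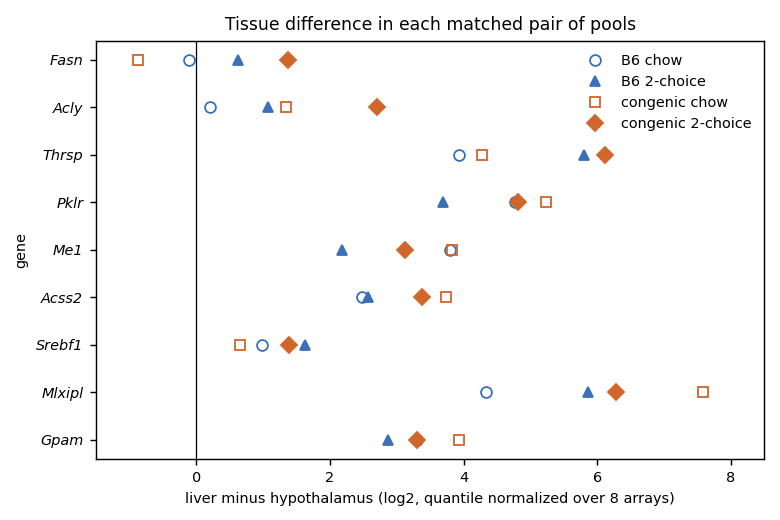
Liver minus hypothalamus level (log2, 8 arrays quantile normalized together) of each gene in each of the 4 matched pairs of pools. Circles are B6 chow, triangles B6 2-choice, squares congenic chow and diamonds congenic 2-choice. All pairs lie above 0 for every gene but Fasn, whose 2 chow pairs lie below 0.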

How the data were processed

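What the authors deposited was linear intensity, 1 value for each of 33012 probes per single-channel array. Per the labels, 1 microgram of total RNA was labelled with digoxigenin by an Applied Biosystems chemiluminescent kit. How background was corrected and arrays were scaled is not given in the sources used here. Groups came from the sample titles and characteristics, and some free-text descriptions name another strain, tissue or diet. The annotation gave 1 symbol to 14411 probes, several to 247 and none here to 18354.

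Values were taken to log2 and quantile normalized within each tissue (over 8 arrays for the tissue comparison). Probes under the 40th percentile of mean level (9.042 in liver, 9.261 in hypothalamus) were not tested. R 4.3.3 with limma 3.58.1 fitted a tissue term plus strain and diet terms nested in tissue, which left 2 residual degrees of freedom. The tissue comparison used matched pairs as blocks and left 3. Moderated variances followed mean level (eBayes, trend), and p-values were adjusted by Benjamini-Hochberg over all probes tested. The fits were run on simulated data whose noise was drawn independently from the fits' own moderated variances. Such data cannot show whether errors taken from single pools are right. The number of arrays limits the precision. The genes and lists were chosen with earlier results of these data known. Genes were named as the 9 members, from the pathway and marker lists, and as the 5 nearest to Fasn. Alternatives were other scalings, filters and variance models, single-tissue fits, and omission of single arrays or pairs. Intensity was not compared between different probes.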

Additional observations from a re-analysis of the deposited data

Results flagged for a closer look

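Each value here marks a gene whose effect ran in opposite directions in the groups compared. In liver the strain difference was below 0 on chow and above 0 on 2-choice for Pklr (congenic minus B6 diet difference 1.27), Me1 (0.97) and Acss2 (0.94). For Gpam in liver the diet difference was below 0 in B6 and above 0 in the congenic strain (0.50). These strain-by-diet values were not tested, since each group held 1 pool.

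In hypothalamus the same value was 2.54 for Mlxipl, 0.71 for Gpam, 0.47 for Acly, 0.39 for Thrsp and -0.74 for Fasn, also untested. For Mlxipl, Acly and Fasn the diet difference had opposite signs in the strains. For Gpam and Thrsp the diet difference kept its sign, and the strain difference had opposite signs on the diets. The Mlxipl value rests on the hypothalamus congenic chow array, whose Mlxipl level lay under the filter limit.

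Between tissues, the diet difference was above 0 in both liver strains and below 0 in both hypothalamus strains for Thrsp (liver minus hypothalamus 1.89, limma adjusted p = 0.0732) and Srebf1 (0.76, adjusted p = 0.202), and both turned below 0 as deposited. The strain difference was opposite in the tissues for Mlxipl (1.94), Acly (1.44) and Srebf1 (-0.30), and those differences were not tested.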

How the results depend on the processing

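Replicate numbers pair nothing, since each group held 1 pool. Strain in the diet fits and matched pools in the tissue fit were already terms, so no further pairing was run. Fits without a strain term left the calls of the 9 genes as they were except for Me1 in hypothalamus (adjusted p = 0.0465). Each gene had 1 probe, so averaging probes was not run as an alternative. With a tissue fitted alone, 639 probes passed for diet and 252 for strain in liver, and 753 and 21 in hypothalamus. For hypothalamus diet, 15430 passed as deposited, 7633 after median-centring, 202 with quantile normalization over 8 arrays, 43 with the 60th percentile filter and 0 without the variance trend. For hypothalamus strain 1 passed as deposited and 1 after median-centring. For diet by tissue these counts were 10781, 3901, 0, 2 and 0 in the order of the 5 settings, and between tissues 5579 passed as deposited. In liver 4 of the 9 genes met the 1.5-fold limit for diet as deposited, 4 after median-centring and 4 with quantile normalization over 8 arrays. These 3 counts were chosen after seeing the data.

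Leaving out each array in turn gave 9 to 258 probes for liver diet, 25 to 1954 for hypothalamus diet, 6 to 78 for liver strain, 0 to 1385 for hypothalamus strain and 2 to 1346 for diet by tissue, and 8295 to 9155 between tissues without each pair. As deposited and median-centred, the hypothalamus diet difference turned above 0 for Fasn (1.79 and 0.53), Acly (2.17 and 0.92), Thrsp (1.52 and 0.27) and Srebf1 (1.95 and 0.69). Diet by tissue turned below 0 as deposited for Fasn (-0.60), Acly (-1.11) and Thrsp (-0.48), and as deposited and centred for Srebf1 (-1.39 and -0.14) and Mlxipl (-1.57 and -0.31). Between tissues, Acly did not pass as deposited (1.42, adjusted p = 0.178). The cause was not tested.

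Without single arrays, values changed sign for the hypothalamus diet difference of Fasn (-0.66 to 0.09), Acly (-0.35 to 0.12) and Mlxipl (-0.77 to 1.77), diet by tissue of Acss2 (-0.62 to 0.57) and Mlxipl (-1.18 to 1.36), the liver strain difference of Acss2 (-0.03 to 0.91), Me1 (-0.34 to 0.63) and Pklr (-0.13 to 1.14), the hypothalamus strain difference of Gpam (-0.50 to 0.21) and Thrsp (-0.21 to 0.18), the liver diet difference of Gpam (-0.17 to 0.33), and Fasn between tissues (-0.12 to 0.63). The liver diet differences of the other 8 genes kept their sign under every alternative run.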
